A study of Homo sapiens with 4 samples.

Results

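Here 43 very long human genes were followed through a small RNA experiment in H9 cells, an established line of primed human pluripotent stem cells. The genes were taken from a written list of symbols of genes that span about 0.5 Mb or more, and all 43 of them were found among the 33640 genes counted. In GENCODE release 44 their spans ran from 0.692 Mb for FGF14 to 2.47 Mb for RBFOX1, so every one of them was at least as long as the list says. The experiment had 4 libraries of nuclear RNA, 1 per condition. Reverse transcription (RT) was carried out before (Pre) or after (Post) tagmentation of DNA by Tn5, and for either order there was 1 library of RNA only and 1 of RNA profiled together with DNA at H3K27me3 and H3K27ac. All 4 libraries came from untreated H9 cells of the same kind, whose nuclei were fixed lightly and whose polyadenylated RNA was copied, and whether the RNA only libraries were tagmented is not given in the sources used here. Because each condition is 1 library of 1 cell line, no difference below has a replicate check, and no p-value of a single difference is given. Counts of calls from additive fits appear only among the checks of the processing.

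Genes of this length are mostly intron. A polymerase needs hours to cross one of them, and much of the RNA of such a gene in the nucleus is unspliced precursor. Many are known from neurons, where they encode adhesion molecules, receptors and synaptic scaffolds, and several, among them FHIT, WWOX, IMMP2L and MACROD2, lie at common fragile sites, places where chromosomes break when replication is slowed.

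The list fell into 6 groups by role. Of these, 12 genes encode adhesion and guidance proteins, 9 encode receptors, ligands and signalling enzymes, 6 encode synaptic scaffolds and channel subunits, 5 encode extracellular and membrane proteins, 3 encode nuclear regulators, and 8 encode broadly used enzymes, polarity and trafficking proteins. Their median span was 1.34 Mb and the median length of the spliced canonical transcript was 7.47 kb, so that the mature transcript made up a median of 0.525% of the span, and between 0.194% and 1.89%. The longest intron of the canonical transcript had a median length of 413.5 kb. KCNIP4, which encodes a modulator of potassium channels, had the longest one at 1066 kb, and NRG1, the growth factor neuregulin 1, the shortest at 111 kb. The counts are given per gene and are not split into exons and introns, so the share of intronic reads could not be measured here.

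The genes were also poor in G and C, which the list did not use. The GC content of the whole span had a median of 37.5% over the 43 genes, against 42.9% over those genes of the files that averaged 10 RPM or more, RPM being the counts of a gene per 1000000 counts of its library. The 289 other genes of at least 500 kb at that level had a median of 38.3%, so low GC content was not particular to the listed genes. Over the 43 it ran from 33.7% in CSMD3 to 44.4% in ASIC2. Because the ratios described further on moved with this property, a stretch of 200 bases is shown for a pair of AT-rich genes and for a pair richer in G and C. Each is the stretch nearest the middle of the longest intron that overlaps no annotated exon and whose GC content lies within 0.5 percentage points of that of its gene. G and C are in capitals, the sequences are from GRCh38, and each reads 5′ to 3′ on the transcribed sense strand.
CADM2, chr3:85343295-85343494, plus strand: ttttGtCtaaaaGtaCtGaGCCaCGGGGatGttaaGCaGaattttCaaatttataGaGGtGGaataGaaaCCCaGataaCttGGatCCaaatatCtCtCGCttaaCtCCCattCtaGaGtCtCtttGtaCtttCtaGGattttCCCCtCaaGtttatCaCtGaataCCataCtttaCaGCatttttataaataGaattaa
EYS, chr6:65177795-65177994, minus strand: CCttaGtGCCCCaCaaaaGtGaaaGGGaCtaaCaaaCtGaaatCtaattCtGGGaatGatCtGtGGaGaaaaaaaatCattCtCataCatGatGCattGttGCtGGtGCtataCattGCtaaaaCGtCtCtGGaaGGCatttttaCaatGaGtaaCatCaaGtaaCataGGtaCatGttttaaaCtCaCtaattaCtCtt
RBFOX1, chr16:7284923-7285122, plus strand: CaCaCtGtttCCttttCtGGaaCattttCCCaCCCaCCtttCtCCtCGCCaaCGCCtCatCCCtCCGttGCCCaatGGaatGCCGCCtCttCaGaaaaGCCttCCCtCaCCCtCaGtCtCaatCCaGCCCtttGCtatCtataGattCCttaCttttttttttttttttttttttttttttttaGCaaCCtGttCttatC
WWOX, chr16:78821480-78821679, plus strand: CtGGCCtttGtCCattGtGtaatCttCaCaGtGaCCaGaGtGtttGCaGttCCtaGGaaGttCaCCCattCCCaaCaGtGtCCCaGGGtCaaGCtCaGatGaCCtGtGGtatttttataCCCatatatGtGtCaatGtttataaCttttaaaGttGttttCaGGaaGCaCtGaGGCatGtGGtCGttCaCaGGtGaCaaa

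The stretches of CADM2 and EYS hold 34% and 35.5% GC, and those of RBFOX1 and WWOX hold 42.5% and 43%. CADM2 lies at 84958989 to 86074429 on chromosome 3 and EYS at 63719980 to 65707226 on chromosome 6. RBFOX1 lies at 5239802 to 7713340 and WWOX at 78099400 to 79212667, both on chromosome 16.

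The libraries held between 6368721 and 10089552 counts. The Post, RNA only library stood apart, because 34.8% of its counts fell on 6 clone-named genes (FP236383 and FP671120), against 10.7% to 15.8% in the other 3 libraries. The ratios that use this library are Post over Pre without DNA and RNA and DNA over RNA only in Post. The cell type was checked on marker lists. All 8 markers of pluripotent stem cells averaged 10 RPM or more, and their sum ran from 1335 to 1752 RPM. Of 10 neuronal markers, 4 reached 10 RPM (SYT1, MAP2, TUBB3 and DCX), and their list summed to 586 to 778 RPM, of which SYT1, itself a gene of over 500 kb, had a mean of 630.2 RPM, while NEUROD1 stayed at or below 0.396 RPM and SOX1 was at 0 in 3 of the libraries. None of the 4 glial and none of the 6 mesoderm and endoderm markers reached 10 RPM, and those lists summed to at most 2.58 and 6.58 RPM.

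The first question was how strongly these genes were represented in stem cell nuclei. All 43 averaged 10 RPM or more, as did 34.4% of all genes and 89.8% of the 322 other genes with an annotated span of at least 500 kb. Together the 43 genes took 1.06% of the counts in Pre, RNA only (95% exact binomial interval 1.06% to 1.07%), 1.08% in Pre, RNA and DNA (1.07% to 1.08%), 0.770% in Post, RNA only (0.764% to 0.777%) and 1.16% in Post, RNA and DNA (1.15% to 1.16%). In bulk libraries like these, fewer nuclei with a transcript and less of it per nucleus cannot be told apart. The low share in Post, RNA only went with the high share of the clone-named genes. With those 6 genes left out of the totals the shares were 1.21%, 1.21%, 1.18% and 1.37% in the same order. Intervals here and below are 95% intervals that cover counting error only.

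Levels of different genes are compared per Mb of span. GPC6, a glypican that anchors growth factors at the cell surface, was the highest of the 43 with a mean of 999.7 RPM per Mb. It held 1231 RPM in Pre, RNA only, 1274 RPM in Pre, RNA and DNA, 919 RPM in Post, RNA only and 1299 RPM in Post, RNA and DNA. CADM2, an immunoglobulin-like cell adhesion molecule, followed at 736.6 RPM per Mb, with 802 RPM, 836 RPM, 733 RPM and 915 RPM in the same order of libraries. ROBO2, a receptor for the guidance cue SLIT, came next at 589 RPM per Mb, with 1024 RPM, 1021 RPM, 850 RPM and 1213 RPM. In each of these genes the Post, RNA only library was the lowest and the Post, RNA and DNA library the highest.

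NTM, neurotrimin, a neuronal adhesion molecule, had a mean of 551.5 RPM per Mb, EXOC4, a subunit of the exocyst complex that tethers vesicles, 545.2, and WWOX, a WW domain oxidoreductase, 479.2. The order of these 3 was not the same in every library. NTM held 600.2 RPM, 568 RPM, 334 RPM and 629 RPM, EXOC4 held 477 RPM, 470.5 RPM, 323 RPM and 504 RPM, and WWOX held 615 RPM, 605 RPM, 313 RPM and 600.4 RPM in the order above. AUTS2, a nuclear regulator of neurodevelopment, stood at 376.5 RPM per Mb, and RBFOX1, a splicing factor of neurons and muscle, at 232.7 RPM per Mb. RBFOX1 held 662 RPM, 646 RPM, 351 RPM and 643 RPM and AUTS2 held 499 RPM, 494 RPM, 297 RPM and 510.5 RPM. In WWOX, RBFOX1 and NTM the Post, RNA only library thus lay further below the other 3 than in CADM2 and ROBO2.

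At the other end CSMD3, a large membrane protein with CUB and sushi domains, had a mean of 8.50 RPM per Mb, 118-fold below GPC6. It held 8.64 RPM (6.86 to 10.7 RPM, exact Poisson interval) in Pre, RNA only, 10.5 RPM in Pre, RNA and DNA, 8.48 RPM in Post, RNA only and 13.7 RPM (11.5 to 16.2 RPM) in Post, RNA and DNA. SGCZ, zeta-sarcoglycan, held 15.6 RPM, 17.4 RPM, 14.9 RPM and 17.4 RPM, and FGF14, an intracellular partner of sodium channels, held 17.5 RPM, 19.5 RPM, 15.1 RPM and 19.3 RPM. CDH13, a cadherin without an intracellular domain, held 19.7 RPM, 19.8 RPM, 20.7 RPM and 26.0 RPM, and NRG1 held 22.1 RPM, 22.0 RPM, 20.6 RPM and 24.7 RPM. For CDH13 alone of these 5 the Post, RNA only library was not the lowest.

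**Figure D1:**
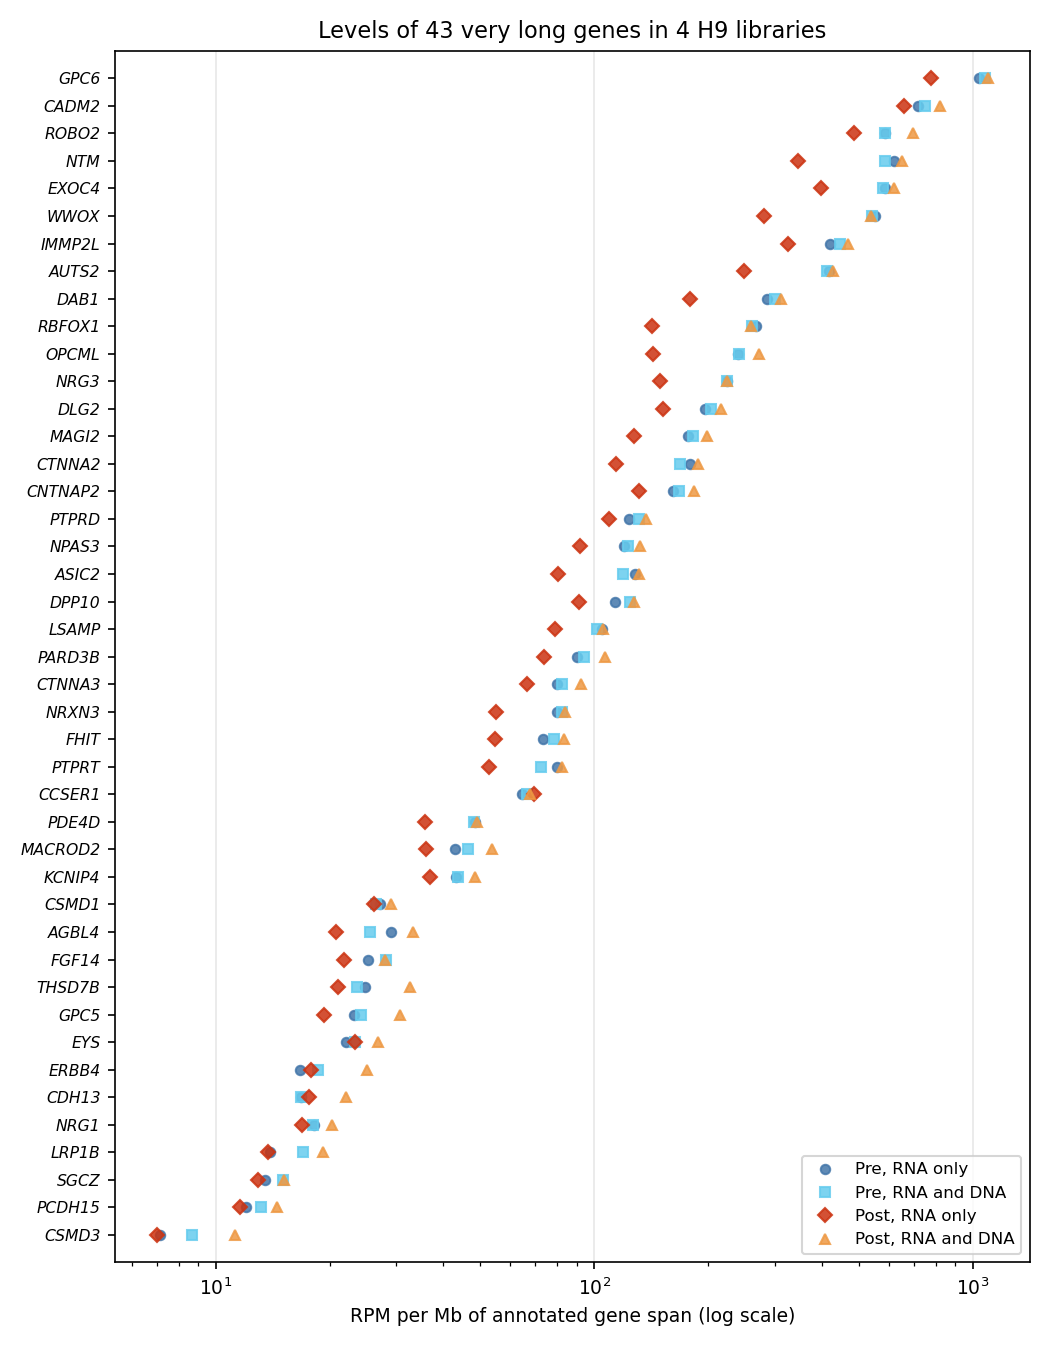
Level of each of the 43 very long genes in RPM per Mb of annotated span (log axis), 1 symbol per library, genes ordered by their mean. GPC6 is at the top and CSMD3 at the bottom, and the Post, RNA only symbol lies to the left of the other 3 for most genes above 50 RPM per Mb.

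The order of the genes was resolved only in part. Of the 42 pairs of neighbours in the order per Mb, 19 stood in the same order in all 4 libraries, and in 39 pairs the ranges over the libraries overlapped. Divided by the length of the spliced transcript the levels spread over 301-fold in place of 118-fold, and the orders were alike (Spearman's rho 0.94 across the 43 genes, which share the same counts in both). By role, the median level per Mb was highest in the 3 nuclear regulators at 232.7 RPM per Mb and the 12 adhesion and guidance genes at 161.7, and lowest in the 5 extracellular and membrane proteins at 23.9. Among the 43 genes, span and internal stretches of A, at which oligo(dT) can prime, were at most weakly related to the levels. Across them the log2 mean RPM had a Pearson's r of 0.12 and a rho of 0.04 with log2 span. With the log2 number of runs of at least 12 A on the sense strand it had an r of 0.23 and a rho of 0.15. The number of runs ranged from 40 in FGF14 to 300 in RBFOX1. Over the 289 other genes of at least 500 kb at 10 RPM or more, r and rho were both 0.09 with span and both 0.30 with the runs of A.

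The order of RT was the first comparison. Ratios were taken as log2((RPM + 1) of Post over (RPM + 1) of Pre) and are given relative to the median of the 11564 genes that averaged 10 RPM or more, called the all-gene median. It was -0.44 between the RNA only libraries, the pair without DNA, and -0.09 between the RNA and DNA libraries, the pair with DNA. In the pair with DNA all 43 genes lay above it, where 50% of all genes lie by construction. Their relative log2 ratios ran from 0.08 to 0.54 with a median of 0.22. The counting interval lay wholly above the all-gene median for 37 of the 43, against 17.7% of all genes. It lay wholly below for 0, against 19.7% of all genes. Among the 289 other genes of at least 500 kb at 10 RPM or more these shares were 73.7% and 1.04%.

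Of the 8 most abundant genes ROBO2 had the highest relative log2 ratio in this pair, 0.34 (0.30 to 0.38). CADM2 stood at 0.22 (0.18 to 0.27), GPC6 at 0.12 (0.09 to 0.16), and WWOX at 0.08 (0.03 to 0.14). Outside these 8, NRG3 was near the low end at 0.09 (0.01 to 0.17). It held 250.2 RPM in Pre and 249.8 RPM in Post with DNA, and 250.3 and 165.8 RPM in the RNA only libraries. The highest values belonged to genes of low counts. THSD7B, a thrombospondin domain protein, went from 21.5 to 29.7 RPM (0.54, interval 0.29 to 0.83), ERBB4, the neuregulin receptor tyrosine kinase, from 21.6 to 29.1 RPM (0.51, 0.26 to 0.79), CDH13 from 19.8 to 26.0 RPM (0.47, 0.21 to 0.77) and AGBL4, a carboxypeptidase that trims glutamates from tubulin, from 38.2 to 49.5 RPM (0.46, 0.27 to 0.67). In the RNA only libraries THSD7B held 22.6 RPM in Pre and 19.2 RPM in Post, and AGBL4 held 43.4 RPM and 31.1 RPM. No gene reached 1.5-fold relative to the median, in a comparison where 1.1% of all genes were higher and 2.02% lower by that much.

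The shift was shared by other genes of like length. The median was higher in each longer class of annotated span. It was -0.36 for 346 genes under 5 kb, -0.17 for 1852 genes of 5 to 20 kb, -0.03 for 5006 genes of 20 to 100 kb, 0.09 for 2700 genes of 100 to 500 kb and 0.20 for 289 other genes of at least 500 kb, beside the 0.22 of the 43 listed genes. The share of genes above the all-gene median was 11.3%, 24.5%, 44.4%, 74.1% and 95.8% in those classes. Short genes include those for ribosomal proteins, whose mRNA is cytoplasmic and whose median was -0.49 in this pair, and the 13 mRNAs of the mitochondrial genome stood at -0.41. The 3 nuclear-retained RNAs at 10 RPM or more, of 4 listed, had a median of -0.13 in the same pair. Of these, MALAT1 went from 1786 to 1526 RPM and NEAT1 from 36.3 to 30.1 RPM, while KCNQ1OT1 went up from 139.1 to 178.9 RPM. The part of cytoplasmic RNA in the result was not tested, and the listed genes are not set apart from other genes of at least 500 kb by these values.

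**Figure D2:**
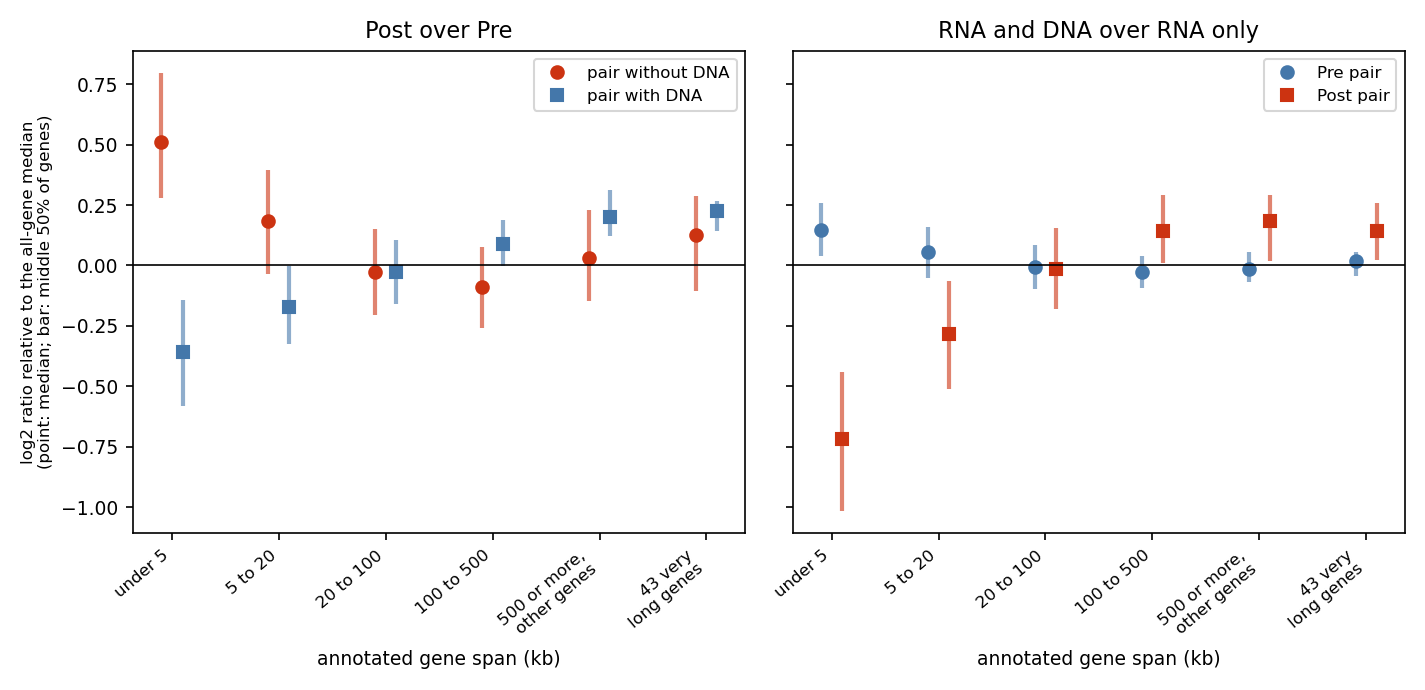
Median relative log2 ratio (points) and middle 50% of genes (bars) by class of annotated gene span, with the 43 very long genes at the right. In the pair with DNA of Post over Pre the medians climb from -0.36 under 5 kb to 0.22, while in the pair without DNA the shortest class is the highest at 0.51.

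The pair without DNA gave another picture. Here the 43 genes had a median of 0.13 and spread from -0.53 to 0.54, with 29 above and 14 below the all-gene median. The counting interval was wholly above it for 16 genes, against 18.8% of all genes, and wholly below it for 10, against 21.4%. Among the 289 other genes of at least 500 kb these shares were 23.9% and 25.6%. For the 10 listed genes the interval of the pair with DNA was wholly above the all-gene median. That combination was held by 4.35% of all genes and 20.4% of the 289. The spread between the genes, an SD of 0.28, was larger than the 0.10 that counting error gives, whereas in the pair with DNA the SD was 0.12 beside a counting error of 0.08. Again 0 of the 43 genes was 1.5-fold higher or lower, where 5.26% and 2.01% of all genes were. The span classes did not line up here, with medians of 0.51, 0.18, -0.03, -0.09 and 0.03 from the shortest to the longest class, and the ribosomal protein genes stood at 0.84. With no filter on low values in the reference the median of the 43 genes turned to -0.091. It was 0.063 over the 32 genes that no other coding gene overlaps, 0.075 over the 31 genes at 50 RPM or more, with that filter in the reference too, and 0.082 at a pseudocount of 5 RPM. The Post library of this pair is the one that stood apart, so here that library and the order of RT cannot be told apart.

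The lowest ratios belonged to 4 abundant genes. WWOX went from 615 RPM in Pre to 313 RPM in Post, a relative log2 ratio of -0.53 (-0.61 to -0.46), RBFOX1 had a ratio of -0.47 (-0.55 to -0.41), NTM of -0.40 (-0.48 to -0.33) and AUTS2 of -0.31 (-0.39 to -0.23). None of these intervals reached 0. The same genes had ratios of 0.08, 0.09, 0.24 and 0.14 in the pair with DNA, which shares no library with this one.

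The genes at the top of the pair without DNA were mostly of low or middle level. CCSER1, a coiled-coil serine-rich protein, held 95.3 RPM in Pre, RNA only and 102.7 RPM in Post, RNA only, a relative log2 ratio of 0.54 (0.40 to 0.69), beside 98.4 and 99.9 RPM in the libraries with DNA. EYS, an extracellular protein of photoreceptors, held 44.03 and 46.5 RPM (0.51, 0.30 to 0.73), and in the libraries with DNA 46.5 and 53.2 RPM. ERBB4 (19.4 and 20.7 RPM, 0.53) and CDH13 (0.51) had wider intervals, from 0.20 to 0.86 and from 0.18 to 0.84. Among the abundant genes CADM2 was highest at 0.31 (0.26 to 0.36) and ROBO2 stood at 0.17 (0.12 to 0.22). GPC6, at 0.02 (-0.03 to 0.06), was not distinguishable from the all-gene median by counting error.

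**Figure D3:**
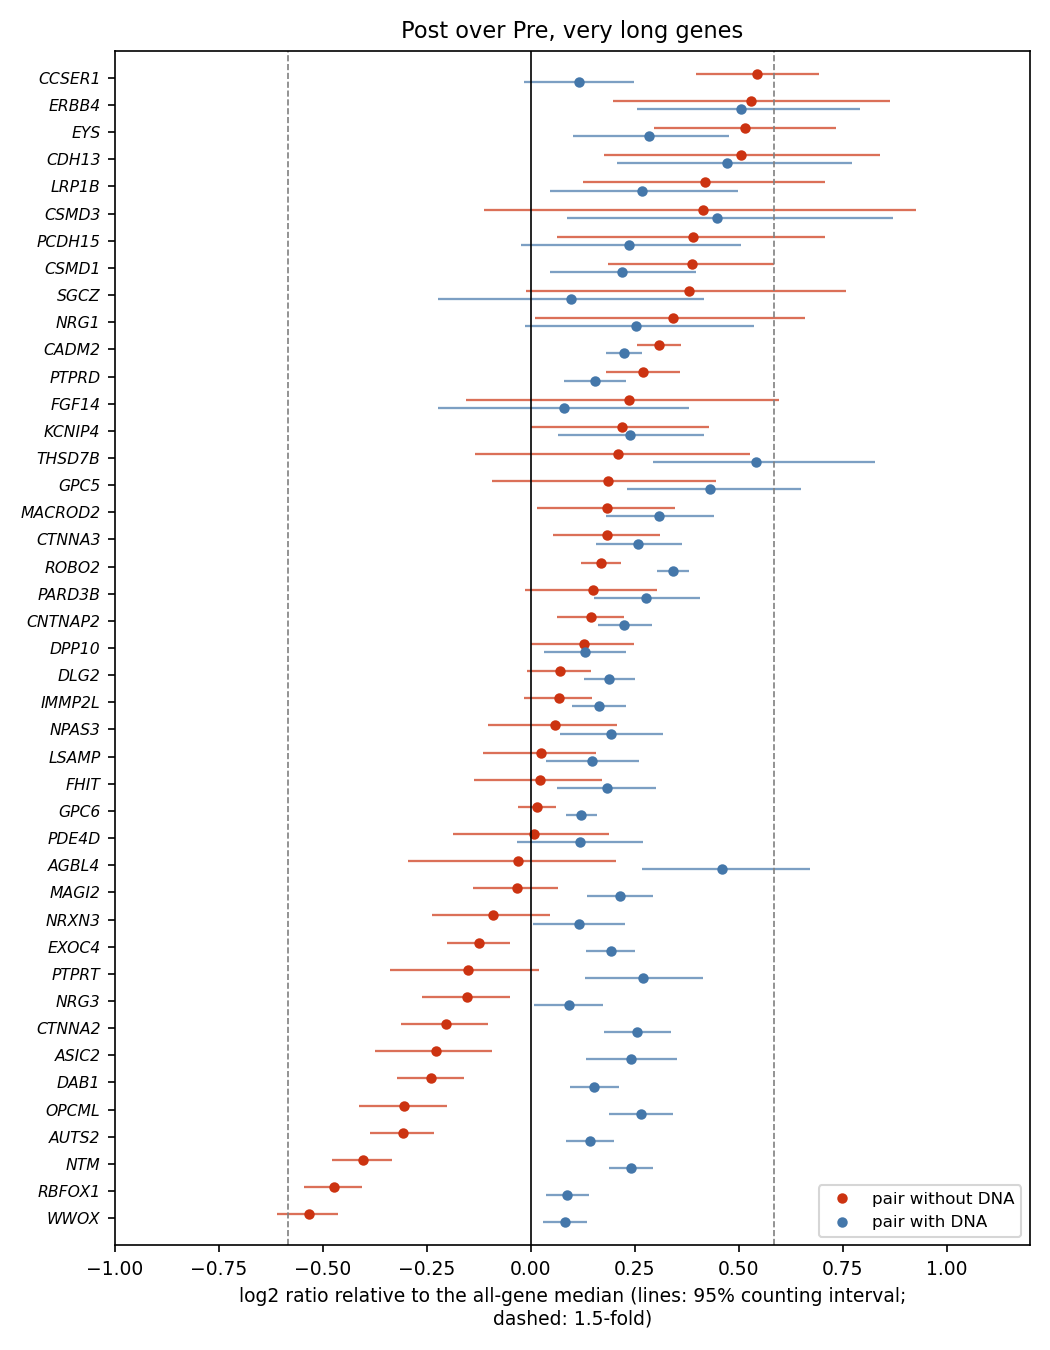
Relative log2 ratio of Post over Pre for each of the 43 very long genes in the pair without DNA (red) and the pair with DNA (blue), with 95% counting intervals as lines and 1.5-fold as dashed lines. All blue points lie to the right of 0, between 0.08 and 0.54, and the red points run from -0.53 in WWOX to 0.54 in CCSER1.

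Roles differed little in the pair with DNA, with group medians between 0.14 and 0.28. In the pair without DNA the 3 nuclear regulators had a median of -0.31 and the 5 extracellular and membrane proteins one of 0.39, with all 5 above the all-gene median. The groups also differed in GC content, with a median of 41.1% in the nuclear regulators and 35.5% in the extracellular and membrane proteins.

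GC content followed the ratio without DNA across the genes. Over the 43 genes Pearson's r between the GC content of the span and the relative log2 ratio was -0.74 (Spearman's rho -0.72), beside -0.13 (-0.09) in the pair with DNA. These are descriptions across genes that share the same libraries. Of the 15 genes under 37% GC, 14 lay above the all-gene median in the pair without DNA, as did 14 of the 19 genes between 37% and 40% and 1 of the 9 genes at 40% or more. The medians of these classes were 0.31, 0.06 and -0.30. In the pair with DNA they were 0.23, 0.19 and 0.24. The class limits were chosen after the values were seen.

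Among the 24 genes that averaged 100 RPM or more the relation was tighter, with an r of -0.89 and a rho of -0.89, and among the 19 below it r was -0.52 and rho -0.58. CDH13 was the 1 gene at 40% GC or more that stood above the median, at 42.2% GC. The coding gene HSBP1 overlaps its span on the same strand, and how reads in overlapping genes were assigned is not given in the sources used here. A coding gene overlaps 11 of the 43, and over the other 32 genes r was -0.87. The level moved with the ratio as well, with an r of -0.63 between the log2 mean RPM and the ratio without DNA, and so did the length of the spliced transcript, with an r of 0.55, where the 289 other genes of at least 500 kb had an r of -0.24. GC content and level were related more weakly, with an r of 0.28. Which of these properties accounts for the differences was not tested.

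Other long genes showed the relation too. Over the 289 other genes of at least 500 kb r was -0.54 and rho -0.67 in the pair without DNA, and the medians of the same GC classes were 0.23 for 88 genes, 0.0045 for 117 genes and -0.20 for 84 genes. In shorter classes r was -0.46 at 100 to 500 kb, -0.27 at 20 to 100 kb, -0.09 at 5 to 20 kb and 0.15 under 5 kb. In the pair with DNA the r of the 289 genes was 0.03, and the medians of their GC classes were 0.21, 0.19 and 0.21.

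**Figure D4:**
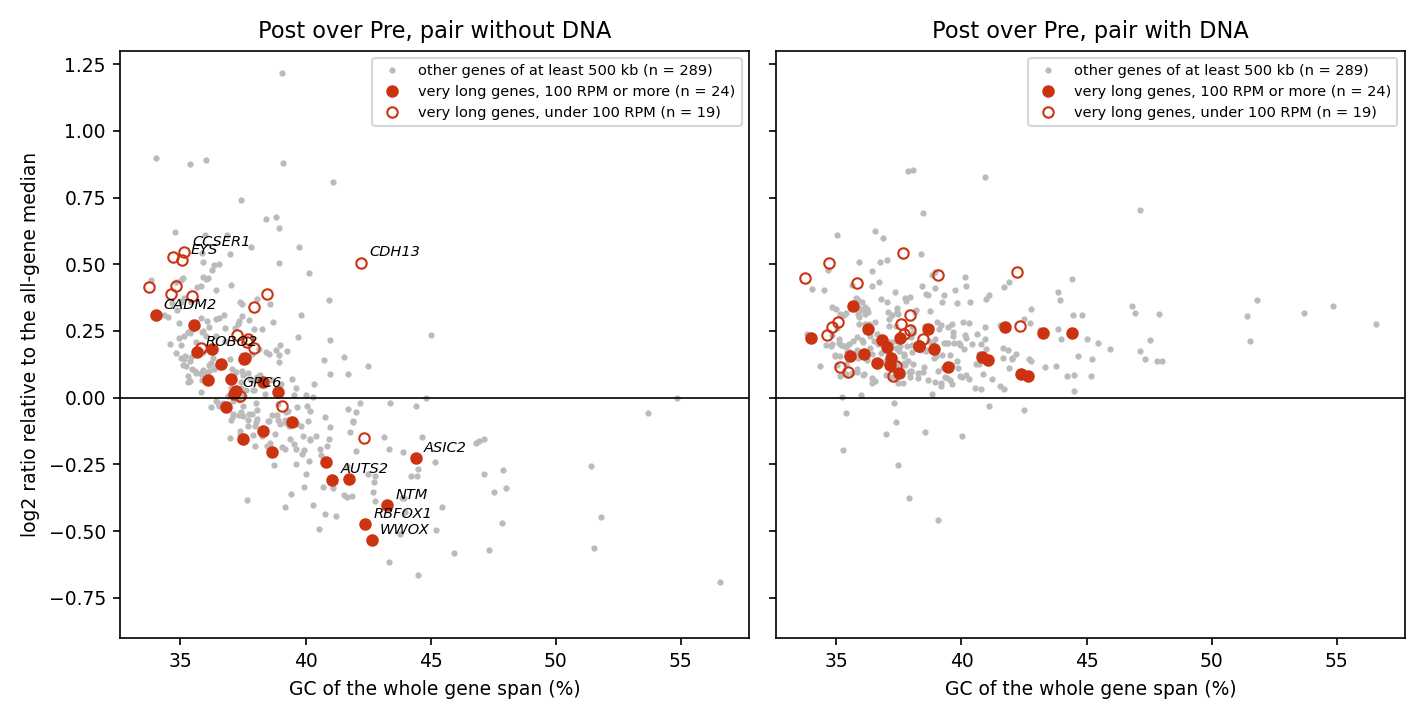
Relative log2 ratio of Post over Pre against the GC content of the whole span, for the pair without DNA (left) and the pair with DNA (right). Red circles are the 43 very long genes, filled at a mean of at least 100 RPM, and grey dots are the 289 other genes of at least 500 kb, 2 of which lie above the left axis limit. The filled circles fall from 0.31 in CADM2 to -0.53 in WWOX on the left and stay between 0.08 and 0.34 on the right.

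The last comparison was that of libraries made with and without DNA profiling. Between the Pre libraries, neither of which had the excess of clone-named genes, the listed genes hardly differed. Their relative log2 ratios of RNA and DNA over RNA only ran from -0.21 to 0.25 with a median of 0.02, and 24 of the 43 lay above the all-gene median. The counting interval lay above it for 2 genes, LRP1B and DPP10, and below it for 5 genes, where 7.58% and 6.96% of all genes did so. LRP1B, a very large lipoprotein receptor, went from 26.4 to 32.3 RPM (0.25, interval 0.01 to 0.51), and in the Post pair from 26.1 to 36.5 RPM. AGBL4 had the lowest ratio at -0.21, with an interval that reached 0 (-0.42 to 0.00). The SD between the genes, 0.0915, was close to the 0.0890 of counting error, and over the 24 genes that averaged 100 RPM or more these were 0.0614 and 0.0419. CSMD3 (0.23), SGCZ (0.13) and FGF14 (0.13) followed LRP1B at the upper end, each with an interval that took in 0. No gene was 1.5-fold higher or lower, and 0.0605% and 0.156% of all genes were.

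CTNNA2, a neuronal alpha-catenin, ASIC2, an acid-sensing ion channel, and PTPRT, a receptor tyrosine phosphatase, were the other genes at the low end of the Pre pair. CTNNA2 held 261.9 RPM in Pre, RNA only and 246.3 RPM in Pre, RNA and DNA, and 167.5 and 275.7 RPM in the Post libraries. ASIC2 held 148.7 and 138.2 RPM in Pre and 93.4 and 153.1 RPM in Post, and PTPRT held 89.0 and 81.0 RPM in Pre and 58.9 and 91.7 RPM in Post. In each of them the ratio was negative in Pre, at -0.11, -0.13 and -0.16, and positive in Post, at 0.34, 0.33 and 0.25. With NTM and RBFOX1 they made up the 5 genes whose interval lay below the all-gene median in Pre and above it in Post, as it did for 3.56% of all genes and 29 of the 289 other genes of at least 500 kb.

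Between the Post libraries the ratios were wider. They ran from -0.42 to 0.56 with a median of 0.14, and 33 of the 43 genes lay above the all-gene median. The counting interval lay above it for 23 genes, against 20.7% of all genes and 51.2% of the other genes of at least 500 kb. It lay below the all-gene median for 3 genes, CCSER1, CSMD1 and CADM2, against 20.4% and 5.88%. WWOX stood highest at 0.56 (0.49 to 0.64), followed by OPCML, an opioid-binding adhesion molecule that went from 160.2 to 304.9 RPM (0.55, beside 268.6 and 270.6 RPM in Pre), NTM (0.53) and RBFOX1 (0.49), and CCSER1 stood lowest at -0.42 (-0.56 to -0.27). CSMD1, a relative of CSMD3, held 54.0 RPM in Post, RNA only and 59.9 RPM in Post, RNA and DNA, a relative log2 ratio of -0.23, and 56.0 and 54.8 RPM in the Pre libraries. None of the 43 reached 1.5-fold, where 1.34% of all genes were higher and 7.63% lower by that much.

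This pair shares the Post, RNA only library with the pair without DNA above, so the ratios of the 2 comparisons are not independent. The r with GC content was 0.62 over the 43 genes, 0.88 over the 24 at a mean of at least 100 RPM, 0.17 (rho 0.11) over the 19 below it, and 0.50 over the 289 other genes of at least 500 kb. Between the Pre libraries r was -0.65 over the 43 genes, -0.60 over the 24, -0.73 over the 19 and -0.39 over the 289. The spread of the Pre ratios was close to that of counting error over the 43 genes. Over the 24 it was larger, with an SD of 0.0614 against 0.0419. By span the median of the Post pair was -0.72 under 5 kb, 0.14 at 100 to 500 kb and 0.18 at 500 kb or more, and in the Pre pair the same classes stood at 0.15, -0.03 and -0.01.

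**Figure D5:**
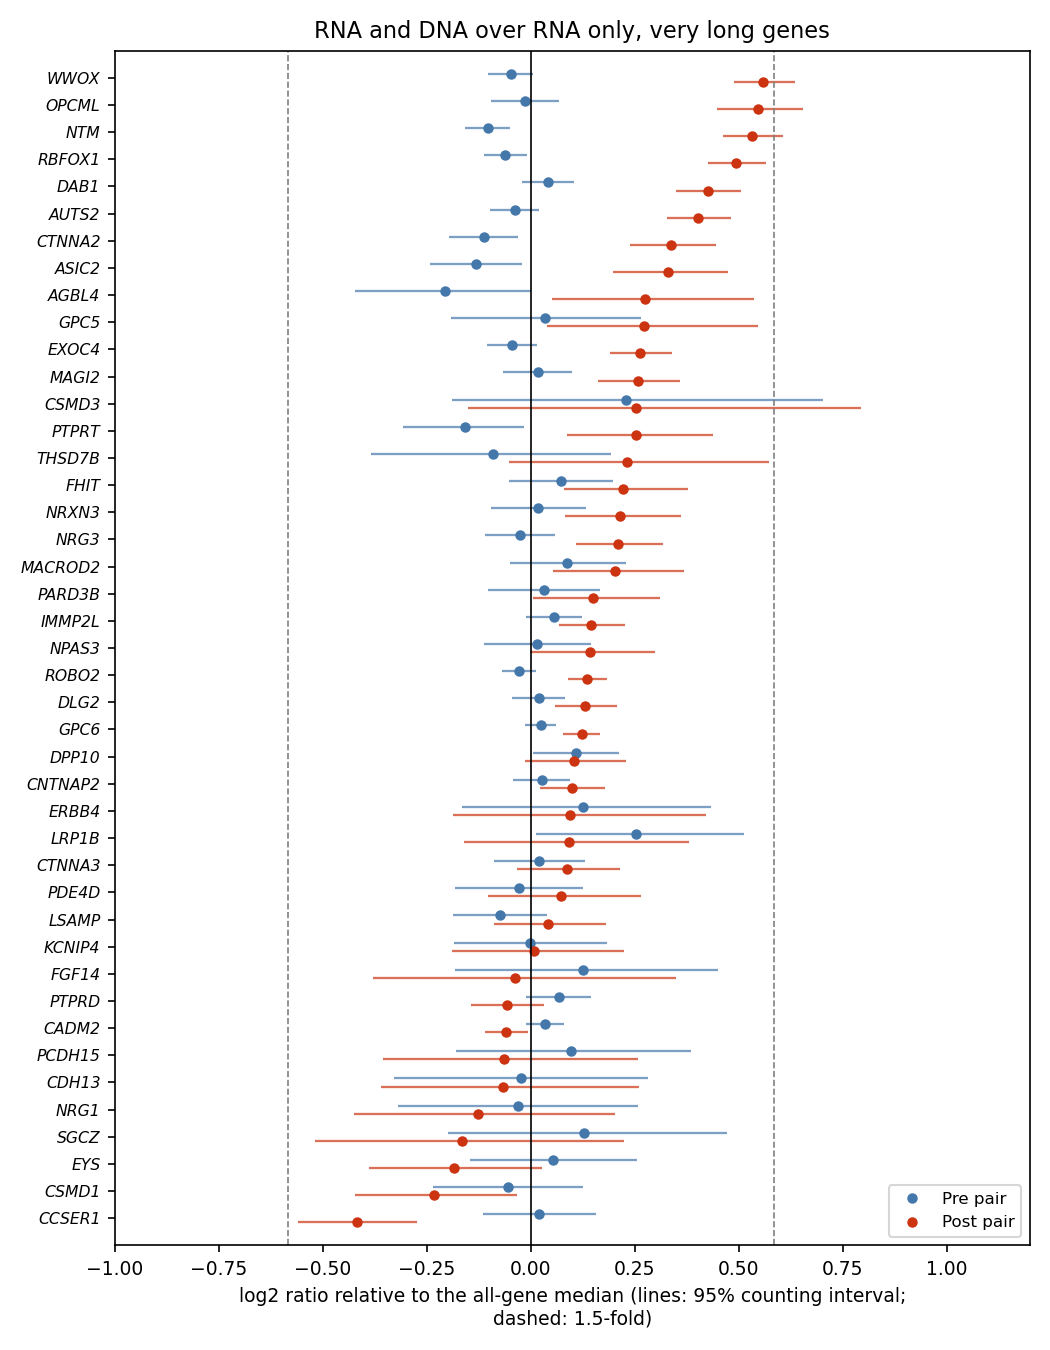
Relative log2 ratio of RNA and DNA over RNA only for each of the 43 very long genes, between the Pre libraries (blue) and the Post libraries (red), with 95% counting intervals as lines and 1.5-fold as dashed lines. The blue points stay between -0.21 and 0.25, and the red points run from -0.42 in CCSER1 to 0.56 in WWOX.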

How the data were processed

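RNA was measured in 4 libraries of H9 cells, 1 per condition, grouped by the labels. The deposited values are counts per gene, which the authors made by mapping reads to GRCh38 and removing duplicates. The submitters' processing notes name Trim Galore 0.6.10, STAR 2.7.11b, Bowtie 1.3.1, Bowtie2 2.5.3 and SAMtools, and the annotation, strand setting and handling of introns are not given in the sources used here. A further 60 columns of barcodes were not used. Counts were divided by the library total (RPM), and 1 RPM was added before log2 ratios were taken. Precision is limited by totals of 6368721 to 10089552 counts, and by 1 library per condition. Differences were called by size, at least 1.5-fold relative to the median of genes that averaged 10 RPM or more. Ratio intervals are exact conditional binomial intervals of the counts without the added RPM.

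Spans, GC content and runs of at least 12 A came from GENCODE release 44 and GRCh38. Symbols were matched for 21841 genes, and for 88.5% of the genes at 10 RPM or more. The members and gene lists were chosen with earlier results of these data known. Values in every library are given for the 8 highest and 5 lowest genes by mean RPM, and for the 4 most extreme genes on either side of each comparison, and other genes were named after their values were seen. Alternatives were other scalings, pseudocounts, filters and folds, thinning, protein-coding genes only, and additive fits of both factors with edgeR 4.0.16 and DESeq2 1.42.0 in R 4.3.3. A form of the rule that asks for 1.5-fold in both pairs at once was checked on simulated data for Post over Pre. Of 11513 genes 100 were raised and 100 lowered 3-fold, and all the changed genes were found. The simulated libraries otherwise differed only in depth and random error, so the check does not cover smaller shifts, single pairs or the excess of clone-named genes. Other steps used scipy 1.17.1, pandas 2.3.3, numpy 2.4.6 and matplotlib 3.10.9 under Python 3.11.15.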

Additional observations from a re-analysis of the deposited data

Results flagged for a closer look

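For 10 of the genes the relative log2 ratio of Post over Pre was below the all-gene median in the pair without DNA and above it in the pair with DNA, with both counting intervals clear of 0. That is 23.3% of the 43 genes, where 20.4% of the 289 other genes of at least 500 kb and 4.35% of all 11564 genes had the same pattern. By sign alone it held for 14 of the 43 and 134 of the 289. The ratio without DNA minus the RNA and DNA ratio was -0.64 in NTM, -0.62 in WWOX, -0.57 in OPCML, -0.56 in RBFOX1, -0.47 in ASIC2, -0.46 in CTNNA2, -0.45 in AUTS2, -0.39 in DAB1, -0.32 in EXOC4 and -0.24 in NRG3. The ratios of RNA and DNA over RNA only lay below the median in Pre and above it in Post, by both intervals, in 5 of the 43 genes (11.6%), against 29 of the 289 and 3.56% of all genes. Of these, NTM (-0.10 and 0.53), RBFOX1 (-0.061 and 0.49), CTNNA2 (-0.11 and 0.34) and ASIC2 (-0.13 and 0.33) are also among the 10, and PTPRT (-0.16 and 0.25, a difference of -0.41) is not. With 1 library per condition the difference between the pairs was not tested. Each of these differences includes the Post, RNA only library, which carried 34.8% of its counts on the clone-named genes.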

How the results depend on the processing

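No paired analysis was possible because every library carries replicate number 1, so the groups share fewer than 2 numbers. Another library-wide scaling cancels in ratios relative to the all-gene median, apart from the pseudocount, and is no check of them. With no filter on low values the median of the listed genes was -0.091 in the pair without DNA, a reversal, 0.14 in the pair with DNA, 0.036 between the Pre and 0.28 between the Post libraries, and that of the other genes of at least 500 kb was -0.15, 0.13, 0.0067 (a reversal) and 0.30. Keeping genes at 50 RPM or more put the latter at -0.031 and 0.16 for the order of RT. The reference then covers other genes, and the cause was not tested further. At least 1.5-fold apart were 10 genes (lower, pair without DNA) and 18 (higher, Post pair) when the all-gene median was not subtracted, 3 and 4 with no filter, 1 (higher, pair without DNA) at 50 RPM or more, 2 (higher, pair without DNA) after thinning and 1 (higher, Post pair) at a pseudocount of 5 RPM. The other settings gave 0. The shares of all genes at these settings were not counted. The all-gene median itself was -0.44 in the pair without DNA and 0.38 in the Post pair. The 10 and 18 genes include that shift of all genes and are not a result about the listed ones. Additive fits, which set Post against Pre within each DNA status, with 1 residual degree of freedom, called 0 of the 43 genes for either factor. Their error comes from the disagreement between the pairs and not from replicates, so 0 calls do not show that the genes were unchanged. Of all 11564 genes they called 0.0173% (edgeR) and 0.225% (DESeq2) for the order of RT, and 0 genes and 0.00865% for DNA profiling. Among the 43 genes, unadjusted p-values under 0.05 numbered 3 for the order of RT and 0 for DNA profiling with edgeR. With DESeq2 they numbered 0 for both. The share of all genes under 0.05 was not counted, so nothing is read from these numbers. The shares, given as Pre RNA only, Pre RNA and DNA, Post RNA only and Post RNA and DNA, were 1.21%, 1.21%, 1.18% and 1.37% without the clone-named genes, 1.25%, 1.24%, 1.22% and 1.42% without the 20 most abundant genes, and 0.942%, 0.950%, 0.679% and 1.03% without GPC6. Levels per kb of spliced transcript spread 301-fold. The leave-out of overlapped genes, levels per spliced length and the GC correlations were added after the data were seen. Depth limits the genes near 10 to 30 RPM, whose ratio intervals are the widest.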

Other observations

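The other genes of at least 500 kb included several that were more abundant than most of the listed ones. PTPRG, a receptor tyrosine phosphatase of 0.736 Mb and 40.8% GC, held 2694 RPM in Pre, RNA only, 2676 RPM in Pre, RNA and DNA, 1471 RPM in Post, RNA only and 2562 RPM in Post, RNA and DNA. For Post over Pre this gave PTPRG relative log2 ratios of -0.43 without DNA and 0.03 with DNA. UNC5D, a netrin receptor, the long noncoding RNA CASC15, and DLGAP1, a postsynaptic scaffold protein, had mean levels of 1393, 1064 and 893 RPM. Their ratios were -0.19, -0.36 and -0.10 in the pair without DNA, and 0.18, 0.08 and 0.23 in the pair with DNA.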
